A study of Mus musculus with 18 samples.

Results

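The hepatic drug and anion transporters described here were 9 genes chosen by name, of 22524 genes listed for each mouse: *Slco1a1*, *Slco1a4*, *Slco1b2*, *Slco2b1* and *Slc22a7*, which encode uptake carriers, and *Abcb1a*, *Abcb4*, *Abcc2* and *Abcc3*, which encode ATP-driven export pumps. All 9 were found by their Ensembl identifiers, and all 9 were among the 13353 genes with enough counts to be tested. RNA was taken from whole liver of 18 female mice on a C57BL/6 background, aged 15 months, with 1 library per mouse. The 10 A226Y mice carried *Rps2*-A226Y, a change in a protein of the small ribosomal subunit that lowers the accuracy of translation, as a heterozygous knock-in that CMV-Cre had activated by removing a loxP-flanked STOP cassette. Excision in this model is partial, so the liver is a mosaic, and cells that keep the cassette have 1 working *Rps2* allele. The 8 wild-type (WT) mice had unmodified *Rps2* and expressed Cre. Whether every A226Y mouse studied still carried the Cre transgene is not stated. The question was which transporter mRNAs differ between A226Y and WT liver.

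Hepatocytes take up bile acids, hormones and drugs from sinusoidal blood through the organic anion transporting polypeptides of the *Slco* family and through organic anion and cation carriers of the *Slc22* family. They conjugate many of these compounds and pass them on through ATP-binding cassette (ABC) pumps, either across the canalicular membrane into bile or back across the sinusoidal membrane into blood. Several of these genes are known targets of the nuclear receptors PXR and CAR, of the oxidative stress factor NRF2, or of sex-dependent growth hormone signalling.

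The 18 libraries held between 23850565 and 62126131 counts, and all 8 pericentral, 8 periportal and 8 general hepatocyte markers were tested in them. *Rps2*, the engineered gene, was at 104, 109 and 143 CPM (reads of a gene relative to all counted reads of the library, TMM-scaled; lowest, median and highest) in the WT mice and at 46.9, 72.5 and 83.0 CPM in the A226Y mice, with no overlap. The log2 fold change of A226Y over WT was −0.73 with a standard error of 0.11 (edgeR, adjusted p = 0.000772). Summed over both alleles, this level follows the labels of every mouse. In bulk liver, fewer cells of a type and less RNA per cell cannot be told apart. A226Y mouse 29 and WT mouse 33 stood apart from their groups over all genes. The chi-square per degree of freedom between 2 libraries was 205 to 449 for A226Y mouse 29 against the other A226Y mice, which gave 19.2 to 89.6 among themselves, and 130 to 194 for WT mouse 33 against the other WT mice, which gave 24.4 to 108. A226Y mouse 29 had the lowest value of its genotype for 5 of the 9 transporters, and both mice had the highest *Slc22a7* of their genotype. Results were therefore also computed without these 2 mice, a check chosen after the values were seen.

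Of the 9 transporters, 2 passed an adjusted p of 0.05, against 14.3% of all tested genes. *Slco1a4* rose 1.70-fold (log2 fold change 0.77, standard error 0.17), and 7.27% of all genes were called higher. *Slc22a7* fell, with WT 4.57-fold above A226Y (log2 fold change −2.19, standard error 0.53), and 7.03% of all genes were called lower. The log2 fold change was positive for 4 of the 9 and negative for 5, with a median of −0.03, beside a median of −0.0044 over all tested genes. At an unadjusted p under 0.05 there were 6 of the 9, beside 29.6% of all tested genes.

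**Figure D1:**
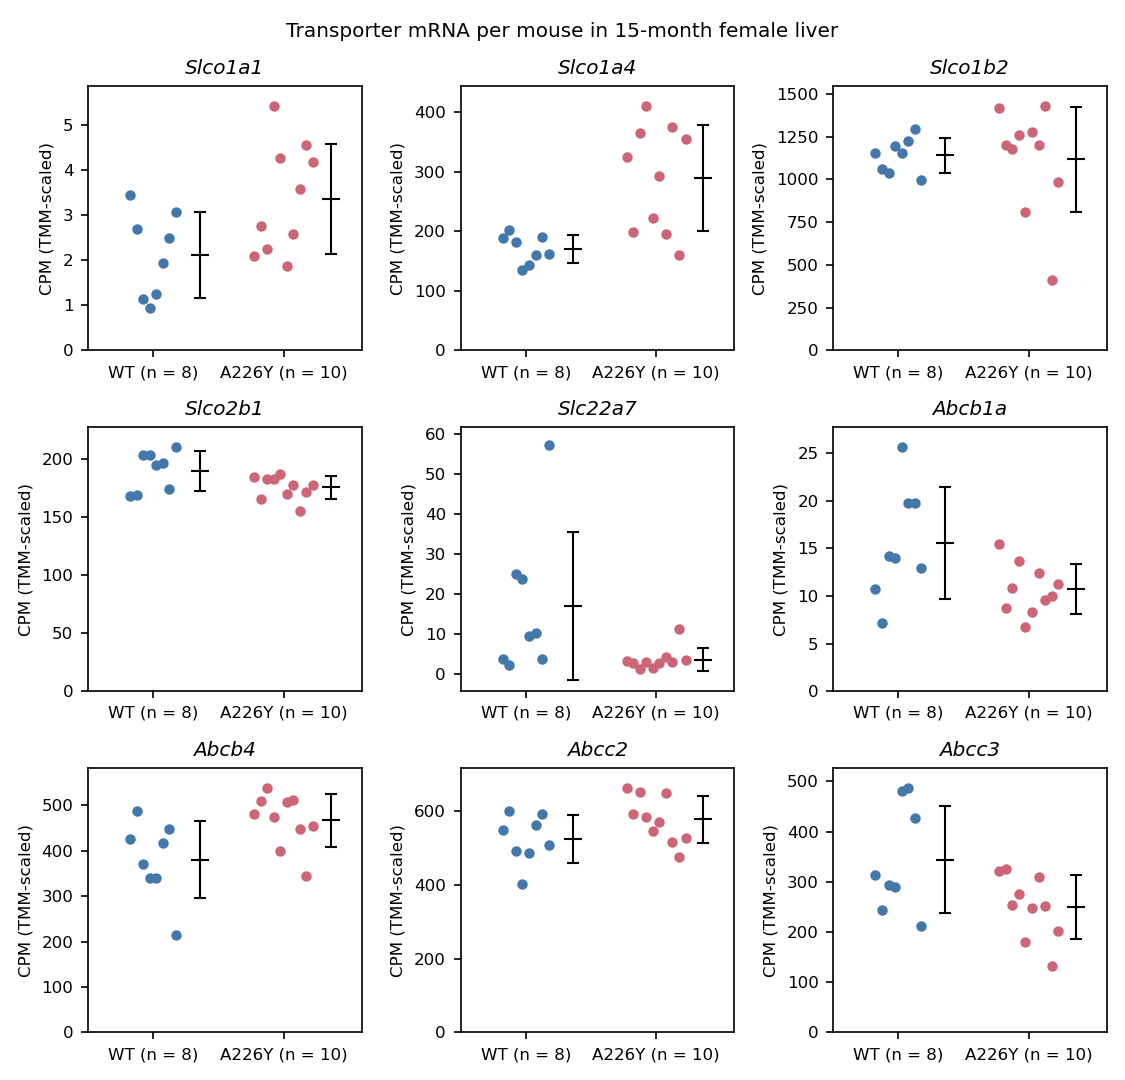
mRNA of the 9 transporters in each mouse, as CPM on TMM-scaled library sizes (vertical axis, linear and different in each panel), for 8 WT mice (blue) and 10 A226Y mice (red); the black mark and bars give the mean ± SD. In *Slco1a4*, 7 of 10 A226Y mice lie above every WT mouse, and in *Slc22a7* all 10 lie below the WT mean.

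**Figure D2:**
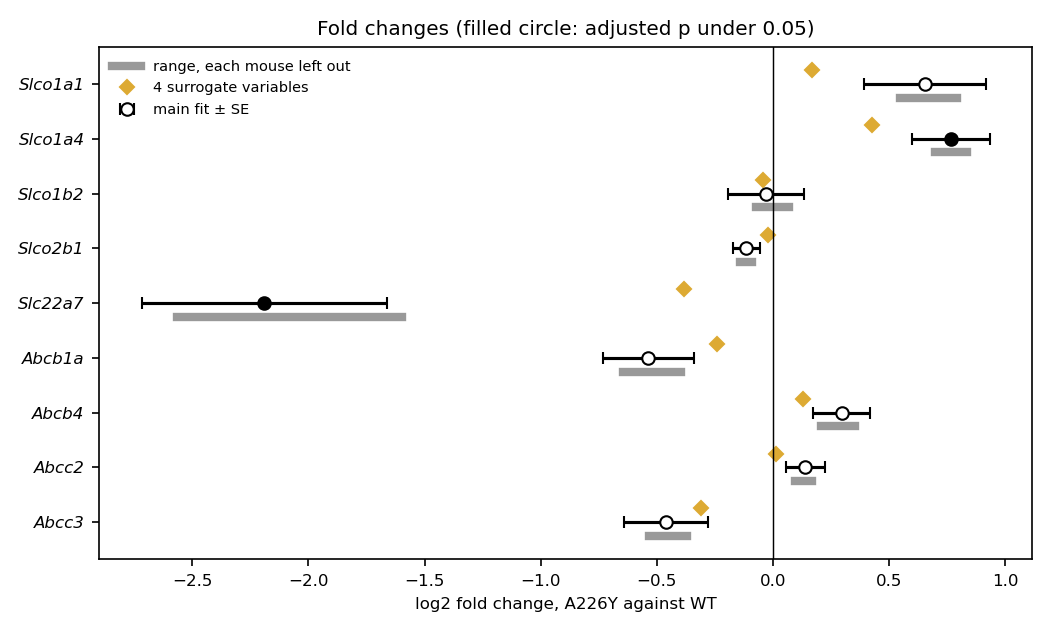
Log2 fold change of A226Y against WT (horizontal axis) for each transporter: circles with bars give the fit ± standard error, grey bars the range over the 18 fits that each leave out 1 mouse, and diamonds the fit with 4 surrogate variables. Filled circles mark *Slco1a4* (0.77) and *Slc22a7* (−2.19), and the fit with surrogate variables gives 0.43 and −0.38 for them.

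Among the uptake carriers, *Slco1a1*, *Slco1a4* and *Slco1b2* lie close to each other on chromosome 6 of GRCm38. *Slco1b2* (ENSMUSG00000030236) spans chr6:141629518-141686646 on the plus strand, *Slco1a4* (ENSMUSG00000030237) chr6:141805440-141856199 on the minus strand, and *Slco1a1* (ENSMUSG00000041698) chr6:141907282-141946962 on the minus strand. The 250 bases before each RefSeq transcription start (GRCm38.p6) are shown because they let the called *Slco1a4* be read beside its family neighbours. The windows are chr6:141629268-141629517 for *Slco1b2*, chr6:141856221-141856470 for *Slco1a4* and chr6:141946963-141947212 for *Slco1a1*, each written 5′ to 3′ on the strand of its gene. Capitals mark the nuclear receptor hexamer AGGTCA (reverse complement TGACCT), which was searched on both strands.
Slco1b2: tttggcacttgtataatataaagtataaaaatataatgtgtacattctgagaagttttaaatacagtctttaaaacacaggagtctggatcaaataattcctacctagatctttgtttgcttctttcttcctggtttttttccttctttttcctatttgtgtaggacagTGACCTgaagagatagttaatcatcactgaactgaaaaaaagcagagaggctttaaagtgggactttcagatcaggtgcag
Slco1a4: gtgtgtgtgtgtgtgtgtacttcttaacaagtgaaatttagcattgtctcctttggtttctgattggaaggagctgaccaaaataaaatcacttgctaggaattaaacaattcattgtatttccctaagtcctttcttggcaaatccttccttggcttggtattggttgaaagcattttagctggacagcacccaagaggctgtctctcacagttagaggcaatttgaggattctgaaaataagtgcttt
Slco1a1: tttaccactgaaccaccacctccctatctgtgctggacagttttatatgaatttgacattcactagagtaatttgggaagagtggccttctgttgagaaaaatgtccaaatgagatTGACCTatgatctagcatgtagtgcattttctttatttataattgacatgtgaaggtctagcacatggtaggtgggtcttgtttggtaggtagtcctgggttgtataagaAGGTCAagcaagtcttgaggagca
The *Slco1b2* window held 1 nuclear receptor hexamer, with its first base at −81 from the start. The *Slco1a1* window held 2, and none was in the *Slco1a4* window. Of the other windows, that of *Abcc2* held 1. Over 32851 promoter windows of the same length, 14% held the hexamer. A match of this kind is a description of the letters. RefSeq windows were found for 7 of the 9 transporters; *Slc22a7* and *Abcc3* had none. An antioxidant response element core, TGACNNNGC (reverse complement GCNNNGTCA), was found in 1 of the 9 windows of these 7 genes, that of *Abcc2*, and in 10.2% of all windows.

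*Slco1a4* encodes OATP1A4, a sinusoidal carrier of bile acids, steroid conjugates and cardiac glycosides. It was at 135, 172 and 203 CPM (lowest, median and highest) in the WT mice and at 161, 308 and 411 CPM in the A226Y mice. The ranges overlapped, but 7 of 10 A226Y mice were above every WT mouse and 9 were above the WT mean. Levels in the A226Y mice also spread more widely, at 290 ± 89.0 CPM (SD, n = 10), than in the WT mice, at 170 ± 24.1 CPM (SD, n = 8). The adjusted p was 0.0060 in edgeR's test over all genes, and reassigning log2 CPM to the genotypes in all 43758 ways gave an exact permutation p of 0.00201 (two-sided). The call held without each mouse in turn, at log2 fold changes from 0.70 to 0.84, and was lost with 4 surrogate variables as covariates (0.43, adjusted p = 0.0783). Of the 50-base windows of its exons, 1.61% were shared with transcripts of other genes, mostly *Slco1a5*, which reached at most 1 count in any mouse.

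*Slco1a1* encodes OATP1A1, a sinusoidal anion carrier known for its predominance in male mouse liver. In these females it was scarce, with 24 to 220 counts per mouse. It was at 0.936, 2.22 and 3.46 CPM in the WT mice and at 1.88, 3.17 and 5.44 CPM in the A226Y mice. The ranges overlapped and 5 of 10 A226Y mice were above every WT mouse. The log2 fold change was 0.66 (standard error 0.26) and did not pass (adjusted p = 0.0967). Within a mouse, the log2 ratio of *Slco1a4* to *Slco1a1* counts was 6.40 ± 0.57 (SD, n = 8) in the WT mice and 6.42 ± 0.71 (SD, n = 10) in the A226Y mice. That difference of 0.018 gave p = 0.950 in a two-sided exact permutation test, and its sign changed in 8 of the 18 fits that each leave out a mouse.

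*Slco1b2*, the only mouse gene of the OATP1B family, encodes the sinusoidal carrier for bilirubin, unconjugated bile acids and statins, and it was the most abundant of the 9. It was at 995, 1154 and 1293 CPM in the WT mice and at 414, 1201 and 1431 CPM in the A226Y mice. The A226Y range enclosed the WT range, with A226Y mouse 29 far below the rest. The log2 fold change was −0.03 (95% interval from its standard error, −0.35 to 0.29; adjusted p = 0.925), and it was 0.07 without that mouse, so no direction is given. *Slco2b1*, which encodes OATP2B1, a carrier of steroid sulphates found in many epithelia, was at 168, 195 and 210 CPM in the WT mice and at 155, 177 and 187 CPM in the A226Y mice. All 10 A226Y mice were below the WT mean, but the ranges overlapped and the log2 fold change of −0.11 (standard error 0.06) did not pass (adjusted p = 0.205). *Slco2b1* (ENSMUSG00000030737) spans chr7:99657804-99711340 on the minus strand, and 2 antisense genes overlap 471 and 78 of its exon bases. The strand setting of the counting is not stated, so their reads and those of *Slco2b1* cannot be told apart.

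*Slc22a7* (ENSMUSG00000067144, chr17:46432183-46438457, minus strand) encodes OAT2, a sinusoidal carrier of organic anions, cyclic nucleotides and creatinine. It was at 2.45, 9.99 and 57.1 CPM in the WT mice and at 1.21, 2.98 and 11.3 CPM in the A226Y mice. The ranges overlapped: all 10 A226Y mice were below the WT mean and 2 were below every WT mouse, while 3 of 8 WT mice were above every A226Y mouse. Relative to its mean, the level varied more between WT mice than that of any other of the 9 transporters, at 17.0 ± 18.4 CPM (SD, n = 8), with WT mouse 33 the highest at 57.1 CPM and WT mouse 6 the lowest at 2.45 CPM. In the A226Y mice it was 3.70 ± 2.81 CPM (SD, n = 10), with A226Y mouse 29 the highest. The adjusted p was 0.0107, and the two-sided exact permutation test gave p = 0.00964. Without WT mouse 33 the log2 fold change was −1.60 (adjusted p = 0.0281), and without it and A226Y mouse 29, the mice that stood apart over all genes, it was −1.96 (adjusted p = 0.00494). The call was lost with limma-voom (−1.65, adjusted p = 0.0607) and with 4 surrogate variables (−0.38, adjusted p = 0.505).

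Of the export pumps, none passed the test over all genes. *Abcb1a* and *Abcb4* are neighbours on chromosome 5, both on the plus strand, at chr5:8660077-8748575 (ENSMUSG00000040584) and chr5:8893717-8959231 (ENSMUSG00000042476). *Abcb1a* encodes a P-glycoprotein of the canalicular membrane that exports lipophilic drugs. It was at 7.12, 14.1 and 25.7 CPM in the WT mice and at 6.78, 10.4 and 15.4 CPM in the A226Y mice, which were all below the WT mean of 15.5 CPM although the ranges overlapped. The log2 fold change of −0.54 (standard error 0.20) did not pass (adjusted p = 0.0694), but it did with DESeq2 (adjusted p = 0.0421), with the likelihood ratio test (0.0461), without A226Y mouse 3 (0.0477) and without WT mouse 6 (0.0157). A share of 22.5% of its 50-base exon windows also occurred in other genes, mainly its close paralogue *Abcb1b*, and *Gm42686* overlaps 553 of its exon bases on the opposite strand, so the split of reads between these genes is uncertain. *Abcb1b* itself was at 1.40 ± 0.40 CPM (SD, n = 8) in the WT mice and at 1.54 ± 0.60 CPM (SD, n = 10) in the A226Y mice (log2 fold change 0.14, adjusted p = 0.708).

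*Abcb4* encodes the floppase that delivers phosphatidylcholine into bile. It was at 215, 394 and 487 CPM in the WT mice and at 344, 478 and 539 CPM in the A226Y mice. The ranges overlapped, with WT mouse 33 lowest of all and A226Y mouse 29 lowest of its genotype. The log2 fold change was 0.30 (standard error 0.12) and did not pass (adjusted p = 0.110), and it passed without WT mouse 6 (0.0481), without A226Y mouse 29 (0.0487) and without A226Y mouse 29 and WT mouse 33 together (0.0390). The log2 ratio of *Abcb1a* to *Abcb4* counts within a mouse was −4.67 ± 0.73 (SD, n = 8) in the WT mice and −5.47 ± 0.35 (SD, n = 10) in the A226Y mice, all 10 of which were below the WT mean. The difference of −0.80 gave p = 0.00848 (exact permutation, two-sided; 0.0127 with Benjamini-Hochberg adjustment for the 3 ratios computed), and it ranged from −1.0 to −0.66 when each mouse was left out. These ratios compare counts of 2 genes in the same library and are not corrected for gene length.

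*Abcc2* and *Abcc3* encode pumps for glucuronide and other conjugates on opposite sides of the hepatocyte, MRP2 at the canalicular and MRP3 at the sinusoidal membrane. *Abcc2* (ENSMUSG00000025194, chr19:43782192-43840740, plus strand) was at 404, 528 and 599 CPM in the WT mice and at 476, 577 and 664 CPM in the A226Y mice, with overlapping ranges (log2 fold change 0.14, 95% interval −0.02 to 0.31, adjusted p = 0.272). *Abcc3* (ENSMUSG00000020865, chr11:94343295-94392997, minus strand) was at 212, 304 and 488 CPM in the WT mice and at 132, 254 and 325 CPM in the A226Y mice. All 10 A226Y mice were below the WT mean of 344 CPM, 3 WT mice lay above the whole A226Y range, and the log2 fold change of −0.46 (standard error 0.18) did not pass (adjusted p = 0.0927). Without A226Y mouse 29 and WT mouse 33 it did (−0.46, adjusted p = 0.0442). The log2 ratio of *Abcc3* to *Abcc2* counts was −0.66 ± 0.46 (SD, n = 8) in the WT mice and −1.25 ± 0.30 (SD, n = 10) in the A226Y mice. All 10 A226Y mice were below the WT mean and 4 were below every WT mouse. The difference of −0.59 gave p = 0.00466 (exact permutation, two-sided; adjusted for the 3 ratios, 0.0127) and ranged from −0.68 to −0.50 when each mouse was left out. Neither mRNA passed on its own, but there the adjustment was over all tested genes, so the 2 outcomes cannot be set against each other. The same permutation test on log2 CPM, unadjusted, gave p = 0.0431 for *Abcc3* and 0.0988 for *Abcc2*. With 4 surrogate variables the log2 fold changes were −0.31 for *Abcc3* and 0.01 for *Abcc2*, and the ratio was not fitted with them.

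**Figure D3:**
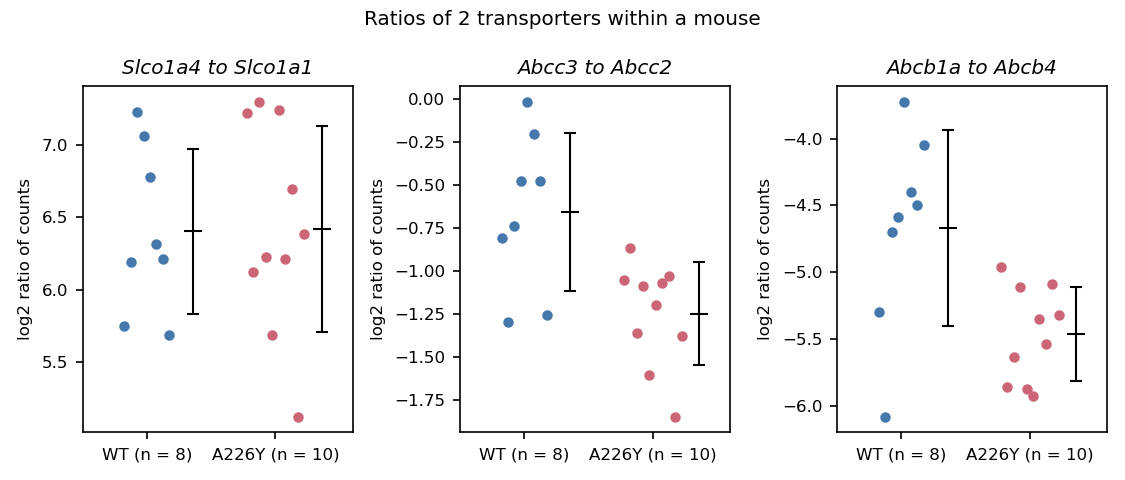
Log2 ratio of the counts of 2 transporters in each mouse (vertical axis, different in each panel), for 8 WT mice (blue) and 10 A226Y mice (red), with mean ± SD in black. The ratio of *Slco1a4* to *Slco1a1* overlaps widely, while *Abcc3* to *Abcc2* and *Abcb1a* to *Abcb4* lie below the WT mean in all 10 A226Y mice.

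Per kilobase of exon, which allows levels to be compared between genes, *Slco1b2* was the most abundant in WT liver at 231 ± 20.6 CPM per kilobase (SD, n = 8). *Abcc2* followed at 61.4 CPM per kilobase, *Abcc3* at 60.3, *Abcb4* at 40.5, *Slco2b1* at 31.8 and *Slco1a4* at 26.6. *Slc22a7* at 8.08, *Abcb1a* at 2.83 and *Slco1a1* at 0.403 CPM per kilobase were the lowest. Of the 8 neighbouring pairs in that order, the ranges over WT mice were separate only between *Slco1b2* and *Abcc2* and between *Abcb1a* and *Slco1a1*. In A226Y liver *Slco1a4*, at 45.2 CPM per kilobase, stood above *Slco2b1*, at 29.4, in 9 of 10 mice, against 3 of 8 WT mice. *Abcc3*, at 43.9 CPM per kilobase, was above *Abcb4*, at 49.8, in 2 of 10 A226Y mice, against 7 of 8 WT mice. *Slc22a7*, at 1.76 CPM per kilobase, was above *Abcb1a*, at 1.95, in 1 of 10 A226Y mice, against 4 of 8 WT mice. These changes of order are descriptions and were not tested.

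How the transporters varied from mouse to mouse was examined on log2 CPM with the mean of each genotype removed, over 18 mice and 36 pairs of the 9 genes. The signs were mixed: 19 pairs had a positive Pearson correlation and 17 a negative one, with a median r of 0.04. *Slc22a7* and *Abcb4* ran opposite to each other (r = −0.80, permutation p = 5e-05, 0.0018 adjusted over the 36 pairs; Spearman rho = −0.67, permutation p = 0.00305, adjusted 0.0366). The r was −0.87 within the 8 WT mice and −0.60 within the 10 A226Y mice, and −0.64 without the 2 mice farthest from the median of *Slc22a7*. *Slco1b2* and *Abcc3* varied together (r = 0.74, permutation p = 0.00011, adjusted 0.00198; rho = 0.68, permutation p = 0.00265, adjusted 0.0366), with r = 0.78 within WT, 0.90 within A226Y and 0.61 without the 2 mice farthest in *Slco1b2*. *Abcb4* and *Abcc2* did so by rank (rho = 0.81, permutation p = 0.00013, adjusted 0.00468), while their r of 0.61 did not pass (permutation p = 0.00704, adjusted 0.0553). The same was true of *Abcb1a* and *Abcc3* (rho = 0.66, permutation p = 0.00442, adjusted 0.0398; r = 0.63, permutation p = 0.0057, adjusted 0.0553). All values come from the same libraries and share their scaling.

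**Figure D4:**
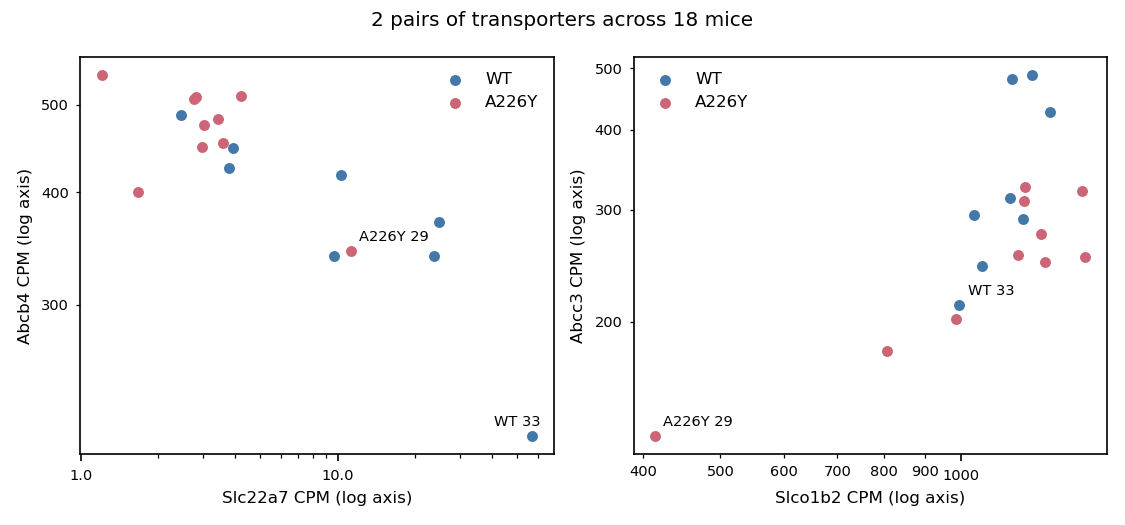
CPM of 2 transporters in each of 18 mice on log axes, *Slc22a7* against *Abcb4* (left) and *Slco1b2* against *Abcc3* (right), with WT in blue and A226Y in red. A226Y mouse 29 and WT mouse 33 are named; WT mouse 33 has the highest *Slc22a7* (57.1 CPM) and the lowest *Abcb4* (215 CPM), and A226Y mouse 29 has the lowest *Slco1b2* (414 CPM).

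The genes whose mouse-to-mouse pattern was most like that of each transporter are given as a description, by Pearson r on the same residuals over 18 mice, among tested genes averaging 1 CPM or more. For *Slco1a4* these were *Mtx3* (r = 0.86) and *Gemin2* (0.81), for *Slco1a1* *Maml3* (0.81) and *Rsrc2* (0.79), and for *Slco2b1* *Naglu* (0.82) and *Lin7a* (0.81). *Slco1b2* was most like *Hpgd* (0.96), which encodes a prostaglandin-degrading enzyme, and *Akr1c12* (0.94). *Slc22a7* was most like *H2-T23* (0.92), a non-classical major histocompatibility gene, and *Man2b2* (0.92), a lysosomal mannosidase. *H2-T23* also fell in the A226Y mice (log2 fold change −0.65, adjusted p = 0.00289), and *Man2b2* did not pass (−0.29, adjusted p = 0.0724). *Abcb1a* was most like *Nr0b2* (0.85), which encodes the bile-acid induced repressor SHP, and *Ildr2* (0.81). *Abcb4* was most like *Creg1* (0.96) and *Hsdl2* (0.95), *Abcc2* like *Eea1* (0.94) and *Lin54* (0.93), and *Abcc3* like *Ddah1* (0.95) and *Rnf130* (0.94). Leaving out the 2 mice farthest from the median of the transporter changed these r values most for *Slco1b2*, to 0.80 and 0.79, and for *Abcb1a*, to 0.70 and 0.70.

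Of 41 other transporter genes, 30 were tested and 6 passed, 2 higher and 4 lower, beside 14.3% of all tested genes (7.27% higher, 7.03% lower). That count was 2 with 4 surrogate variables, *Slc22a30* and *Abcc6*, and 3 to 9 when each mouse was left out. No gene was called higher with surrogate variables, without a filter beyond 1 count (4 called), or without A226Y mouse 3, 7, 15 or 32 or WT mouse 13, 14 or 21. Among 15 tested uptake carriers, *Slco2a1*, a prostaglandin carrier, rose (log2 fold change 0.30, adjusted p = 0.0415), as did *Slc22a5*, the carnitine carrier (0.28, adjusted p = 0.0455). *Slc22a27* (−0.56, adjusted p = 0.0403) and *Slc22a30* (−0.56, adjusted p = 0.0210), like *Slc22a7* members of the *Slc22* family, fell. With the length offset the calls of *Slco2a1* (adjusted p = 0.167) and *Slc22a27* (0.0828) were lost. Among 15 tested efflux transporters, *Abcc6* (−0.44, adjusted p = 0.00152) and the copper pump *Atp7b* (−0.31, adjusted p = 0.00487) fell and none rose. The bile acid pair of uptake carrier *Slc10a1* (0.02, adjusted p = 0.925) and canalicular pump *Abcb11* (−0.03, adjusted p = 0.901) did not pass, nor did *Abcg2* (0.10, adjusted p = 0.438). The medians were 0.02 for uptake and −0.03 for efflux carriers.

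Of 13 scaffold and trafficking genes, 3 fell and none rose (median −0.02), beside 7.03% of all tested genes called lower and 7.27% higher. *Slc9a3r1*, which encodes the PDZ scaffold NHERF1 that anchors MRP2 and other carriers at the apical membrane, fell from 215 ± 35.9 CPM (SD, n = 8) to 143 ± 13.6 CPM (SD, n = 10; log2 fold change −0.59, adjusted p = 0.000932). Its relative *Slc9a3r2* (−0.24, adjusted p = 0.0207) and *Bsg*, the chaperone of monocarboxylate carriers (−0.26, adjusted p = 0.0197), were the others, and *Pdzk1*, a PDZ scaffold of several OATPs, did not pass (−0.18, adjusted p = 0.266). The call of *Bsg* was lost with 4 surrogate variables (adjusted p = 0.468) and with the length offset (0.0609), and that of *Slc9a3r2* with the length offset (0.0775).

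Of 22 regulators of transporter genes, 3 fell and none rose (median −0.09), so that the share called in either direction was near the 14.3% of all tested genes. *Nr1i3*, which encodes CAR, fell from 544 ± 90.1 CPM (SD, n = 8) to 395 ± 89.2 CPM (SD, n = 10; log2 fold change −0.46, adjusted p = 0.0321). The growth hormone receptor *Ghr* (−0.59, adjusted p = 0.00363) and the hepatocyte factor *Foxa2* (−0.33, adjusted p = 0.0148, and 0.234 with 4 surrogate variables) fell too. The PXR gene *Nr1i2* (0.02, adjusted p = 0.883), the FXR gene *Nr1h4* (−0.03, adjusted p = 0.857), the NRF2 gene *Nfe2l2* (−0.06, adjusted p = 0.664) and *Hnf4a* (0.08, adjusted p = 0.590) did not pass.

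Of 20 enzyme genes known as PXR or CAR targets, 1 rose and 3 fell (median −0.23), beside the same 14.3%. *Cyp2b10*, a classical CAR target, rose from 8.14 ± 4.01 CPM (SD, n = 8) to 22.3 ± 9.28 CPM (SD, n = 10). Its log2 fold change was 1.45 (adjusted p = 0.00398, and 0.132 with 4 surrogate variables). *Cyp2c29* (−0.50, adjusted p = 0.0365), *Papss2* (−0.44, adjusted p = 0.0339) and *Gstt1* (−0.65, adjusted p = 0.00645) fell. With 4 surrogate variables the calls of *Cyp2c29* (adjusted p = 0.142, and 0.0618 with the length offset) and *Papss2* (0.531) were lost too. Of 13 tested NRF2 target enzymes only *Srxn1*, sulfiredoxin, rose (0.42, adjusted p = 0.0204, and 0.106 with 4 surrogate variables) and none fell (median 0.15). None of 15 female-biased liver genes passed. Positive log2 fold changes were seen in 2 of them (median −0.31) and in 6549 of the 13353 genes tested, and the list as a whole was not tested. Of 11 tested male-biased genes, a list that holds *Slco1a1*, *Cyp2d9* (0.89, adjusted p = 0.0281) and *Mup20* (1.10, adjusted p = 0.0244) rose while *Elovl3* (−1.26, adjusted p = 0.0281) and *Selenbp2* (−2.0, adjusted p = 0.0130) fell (median −0.11). With 4 surrogate variables all 4 of these calls were lost (adjusted p of 0.621 for *Cyp2d9*, 0.269 for *Mup20*, 0.937 for *Elovl3* and 0.101 for *Selenbp2*).

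Markers of liver cell types and zones were compared in the same fit. There, 14.3% of all tested genes were called, 7.27% higher and 7.03% lower. None of 6 tested cholangiocyte, 7 endothelial or 7 lymphocyte markers passed, and 1 of 7 Kupffer cell markers (*Clec4f*, −0.65) and 1 of 7 stellate cell markers (*Col1a1*, −0.77) fell. The summed lymphocyte markers ranged from 67.8 to 757 CPM in WT and from 63.8 to 298 CPM in A226Y mice, the median of their log2 fold changes being −0.36, and the summed Kupffer cell markers from 387 to 785 and from 255 to 1061 CPM, with a median of −0.44. The cholangiocyte markers summed to between 12.3 and 26.3 CPM in WT and between 13.3 and 30.3 CPM in A226Y mice, with a positive log2 fold change in 6 of 6 (median 0.28), and *Cftr*, which marks these cells, reached at most 7 counts. Of 8 pericentral markers 2 fell (*Cyp1a2*, −1.03, and *Rhbg*, −1.56), of 8 periportal markers *Cyp2f2* fell (−0.58), and of 8 general hepatocyte markers *Cps1* (0.55) and *Tat* (0.85) rose and *Fah* (−0.24) fell. Of these called markers, *Clec4f* (adjusted p = 0.0205) and *Cyp1a2* (0.04999) still passed with 4 surrogate variables. The part of these cell type and zone markers in the differences of *Slco1a4* and *Slc22a7* was not tested.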

How the data were processed

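For each of the 18 mice the authors deposited raw read counts, whole numbers for 22524 Ensembl genes and not normalized. The paper's methods name RSEM, while the submitters' processing notes list fastp, STAR, featureCounts and GRCm38; which route gave the counts, and its handling of strand and of reads matching several genes, is not given in the sources used here. GENCODE M21 (GRCm38) gave symbols and positions for 22291 of 22524 identifiers.

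Genes reaching 10 counts in 50% or more of the A226Y or of the WT mice were compared with edgeR 4.0.16 (R 4.3.3; TMM scaling, quasi-likelihood test, no covariates), with Benjamini-Hochberg adjustment over all 13353 tested genes. Single values were compared with two-sided exact permutation tests over 43758 divisions of the mice, and correlations with 100000 permutations. Ratios used counts plus 2. CPM per kilobase used the union of annotated exons. No batch is given in the labels. Each mouse is 1 sample. No 2 libraries of the same genotype were alike within sampling noise (chi-square per degree of freedom at least 19.2). At this depth the spread between mice, not counting error, sets the precision.

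The 9 transporters and the gene lists were chosen with earlier results of these data known. Genes named are the transporters, *Rps2*, a fixed set of related carriers and regulators, up to 4 genes per direction and list with the smallest adjusted p, and the 2 genes most like each transporter. *Abcb1b*, *Slco1a5* and *Cftr* are also named for shared reads or low counts. Alternatives were other scalings, filters, tests (DESeq2 1.42.0, limma-voom 3.58.1), 4 surrogate variables (sva 3.50.0), length and GC offsets, and leaving out each mouse. The values of some single genes in the lists are not reported here. The edgeR, DESeq2, limma-voom, surrogate-variable and offset fits were also run on simulated counts, with outcomes not reported here. Promoter windows came from RefSeq (GRCm38.p6).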

Additional observations from a re-analysis of the deposited data

Results flagged for a closer look

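*Slc22a7* in WT mouse 33 stood at 57.1 CPM, far from the next WT mouse at 24.9 CPM (gap of 0.589 of the group's range, against a Dixon critical value of 0.526 for 8 mice). *Slc22a7* in A226Y mouse 29 stood at 11.3 CPM, with the next A226Y mouse at 4.22 CPM (0.701 against 0.466 for 10 mice). These were 2 of 18 groups tested (9 genes in each genotype, at both ends of the range), and chance flags about 1 in 20 groups of normally distributed values, which CPM of *Slc22a7* need not be. On log2 CPM neither was past the critical value (0.263 for WT mouse 33 and 0.44 for A226Y mouse 29), while *Slco1b2* in A226Y mouse 29 (0.539) and *Abcb4* in WT mouse 33 (0.561), both the lowest of their genotype, were; this scale was added after seeing the data. The 2 mice lie at the high end of opposite groups, and the log2 fold change was −1.60 without the first and −2.56 without the second, with the adjusted p under 0.05 in both. Whether these values are technical was not tested.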

How the results depend on the processing

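Over 14 other settings and 18 fits that each leave out 1 mouse, *Slco1a4* kept its direction and lost its call with 4 surrogate variables, and *Slc22a7* kept its direction and lost its call there and with limma-voom; the causes were not tested. The number of transporters called was 1 with limma-voom and 0 with 4 surrogate variables. It was 4 without A226Y mouse 29 and WT mouse 33 together, a setting chosen after seeing the data. When each mouse was left out it was 2 to 4, the 4 being without WT mouse 6. Of the other transporters, 2 were called with surrogate variables and 10 without A226Y mouse 29 and WT mouse 33. When each mouse was left out, 3 to 9 were called. The 3 were without A226Y mouse 7, 15 or 32, or WT mouse 13 or 21, and the 9 without WT mouse 6. Over all genes, 1910 were called, 285 with surrogate variables and 1255 (without WT mouse 14) to 2560 when each mouse was left out. With scaling by library size only, 1399 of 2059 calls were higher, against 971 of 1910. *Slco1b2* changed sign with library size only (0.0065) and without A226Y mouse 15 (0.015) or 29 (0.0687). It also did so without A226Y mouse 29 and WT mouse 33 together (0.0448). Its range was −0.0736 to 0.0687 when each mouse was left out, and it passed in none of these. The ratio of *Slco1a4* to *Slco1a1* was −0.0011 with a prior count of 0.5 and −0.0842 to 0.162 when each mouse was left out. The other 2 ratios kept their direction and their call in all settings run for ratios. These were a prior count of 0.5, leaving out A226Y mouse 29 and WT mouse 33 together, and leaving out each mouse in turn. The ratios were not fitted with surrogate variables. No paired analysis was run because the labels give no litters or matched pairs. Counting error was largest for *Slco1a1* and *Slc22a7*, whose lowest counts were 24 and 36.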
